A study of Mus musculus with 9 samples.

Results

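BCL2 family transcripts were followed in neutrophils from young Rragc+/+ and RragcS74N/+ mice. The members were the genes with the symbols Mcl1, Bcl2, Bcl2l1, Bcl2l11, Bcl2a1a, Bcl2a1b, Bcl2a1d, Bax, Bak1 and Bid, and the deposited table of 7197 genes held rows for 5 of these 10. Those 5 were Mcl1, Bcl2l1, Bak1, Bid and Bcl2l11, while Bcl2, Bcl2a1a, Bcl2a1b, Bcl2a1d and Bax were not analysed here. The libraries came from 5 Rragc+/+ animals with both alleles unedited and from 4 RragcS74N/+ animals with 1 edited allele, all aged 2 months and with no treatment named in the labels. Rragc encodes RagC, part of the Rag GTPases through which amino acids switch on mTORC1 at the lysosome, and the product of the edited allele is an activated form. The edited allele comes from a knock-in line that was made with Cas9 in embryos, so it is not confined to neutrophils. In RragcS74N/+ animals the neutrophils had matured in a marrow that carries it. Neutrophils were sorted from bone marrow as CD45+ CD11b+ Ly6G+ cells, and the labels give neither strain nor sex.

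BCL2 family proteins decide whether the outer mitochondrial membrane is permeabilised, which releases cytochrome c and starts the caspase cascade. Prosurvival members such as MCL1 and BCL-XL hold the effectors BAK and BAX in check, and BH3-only proteins such as BIM and BID relieve that block or activate the effectors. Neutrophils are short-lived cells that die readily by this route, and MCL1, a protein of rapid turnover, is known to be required for their survival.

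RNA was measured by sequencing of transcript 3′ ends, and each value is a normalized count, the reads of a gene divided by the size factor of its library. Reads come from one end of each transcript, so values are not scaled by transcript length. The reads recovered over the listed genes numbered 1214295 to 1973957 per library, with the lowest total in Rragc+/+ replicate 2. This library also stood apart in composition, since genes with GC-rich 3′ ends were read more often in it than elsewhere. On each library's fitted trend, genes with 60% GC in the last 500 nucleotides were 0.81 log2 units above those with 40% in Rragc+/+ replicate 2, and -0.49 to 0.38 in the other libraries. Values without it are given beside the differences that its removal moved most in proportion. The sorted cells carried the neutrophil transcripts: 9 of 9 mature neutrophil markers were listed, and Ly6g, which encodes the sorting antigen, ranged from 2036 to 4066 normalized counts. The edited gene itself, Rragc, spanned 61.9 to 87.6 normalized counts in the Rragc+/+ and 51.8 to 72.1 in the RragcS74N/+ libraries (exact permutation test, two-sided, p = 0.484), and counts per gene do not separate its alleles.

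In these cells Mcl1 was by far the most abundant of the 5 transcripts, and for no member was a genotype difference called after adjustment. Of the 5 members, 0 passed an adjusted p of 0.05 in limma, beside 0% of the 6673 genes tested, and 0 had an unadjusted p under 0.05, beside 5.81% of all genes tested. The genotypes overlapped in 5 of 5 members, and values did not overlap in 1.69% of all genes tested. All differences below are RragcS74N/+ minus Rragc+/+ on the log2(value + 1) scale, which understates the change of low genes. Across all tested genes, 0 passed the adjusted threshold by limma, by edgeR or by DESeq2, and 388, 460 and 447 had an unadjusted p under 0.05. The libraries are bulk samples, so fewer cells of a type and less RNA per cell cannot be told apart.

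**Figure D1:**
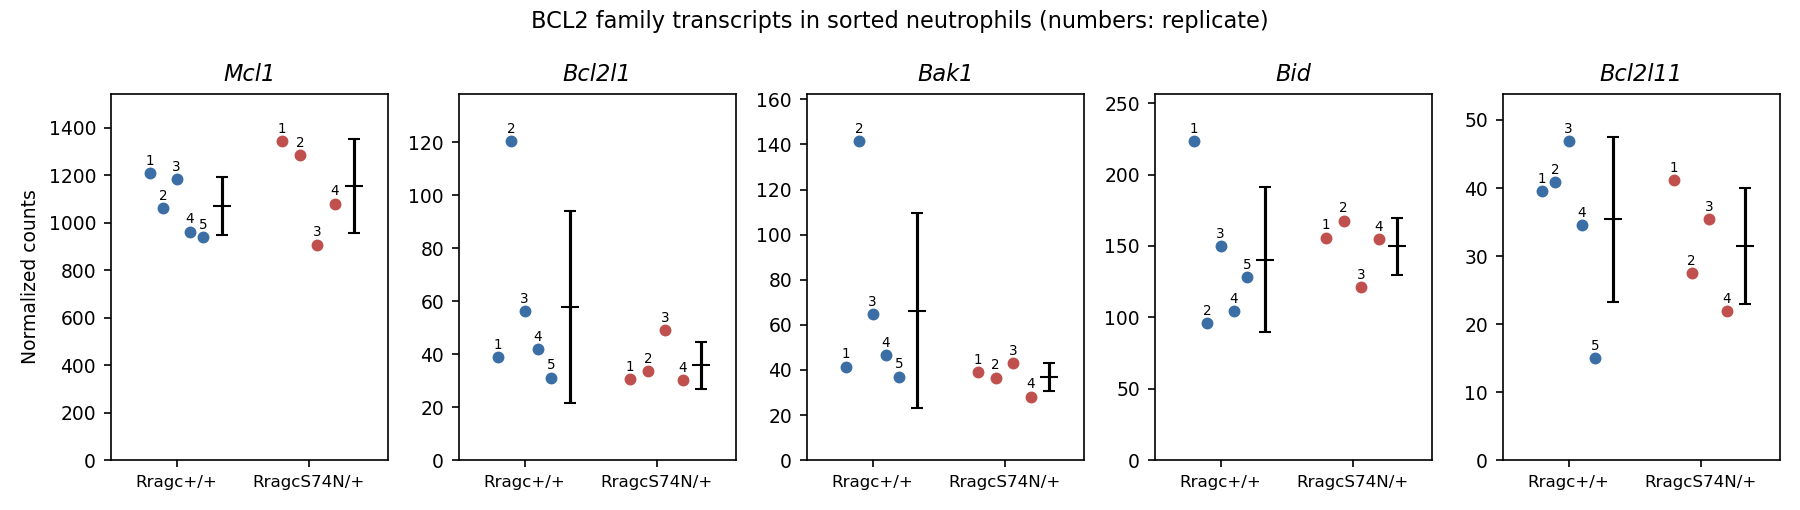
Normalized counts of the 5 listed BCL2 family members in each library (points, with the replicate number), by genotype, with the mean and SD as bars and a separate linear axis from 0 for each gene. Rragc+/+ replicate 2 stands highest for Bcl2l1 and Bak1, at 120.4 and 141 normalized counts, while Mcl1 lies between 908 and 1343 in all 9 libraries.

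Of the prosurvival members, Mcl1 was the transcript with the higher level and the smaller spread. Mcl1 measured 1208, 1061, 1183, 962 and 940.4 normalized counts in the Rragc+/+ libraries and 1343, 1286, 908 and 1081 in the RragcS74N/+ libraries. The highest and the lowest of the 9 values both came from RragcS74N/+ cells. The means were 1071 ± 123 (SD, n = 5) and 1155 ± 199 (SD, n = 4), and the log2 difference was 0.10 (SE 0.17, 95% interval -0.26 to 0.46, limma adjusted p = 0.860). Mcl1 ranked 162 of 7197 genes by mean level, and its spread within a genotype, 0.21 on the log2 scale, was at percentile 11.9 of all tested genes.

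Bcl2l1, which encodes BCL-XL, was present at a level near the middle of the table (percentile 50.6). Its normalized counts were 38.9, 120.4, 56.2, 41.8 and 31.1 in Rragc+/+ cells and 30.5, 33.5, 49.0 and 30.3 in RragcS74N/+ cells. A single library, Rragc+/+ replicate 2, lay far above the other 8, which spanned 30.3 to 56.2. The means were 57.7 ± 36.2 (SD, n = 5) and 35.8 ± 8.88 (SD, n = 4). The log2 difference was -0.53 (SE 0.33, 95% interval -1.23 to 0.18, limma adjusted p = 0.713), and without Rragc+/+ replicate 2 it was -0.22.

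Bak1 encodes the effector BAK, which forms pores in the outer mitochondrial membrane once activated. In Rragc+/+ cells it measured 41.5, 141, 64.7, 46.6 and 37.1 normalized counts, and in RragcS74N/+ cells 39.1, 36.6, 42.9 and 28.2. Rragc+/+ replicate 2 was again the highest library, while 2 of the 4 RragcS74N/+ values lay within the Rragc+/+ range and 2 below it. The means were 66.3 ± 43.3 (SD, n = 5) and 36.7 ± 6.24 (SD, n = 4). The log2 difference of -0.66 (SE 0.33, 95% interval -1.37 to 0.04) was the largest among the 5 members and did not pass the adjusted threshold (limma unadjusted p = 0.0637, adjusted p = 0.713). It was -0.35 without Rragc+/+ replicate 2, and Bak1 had an unadjusted p of 0.0364 in edgeR and 0.0272 in DESeq2, with adjusted p-values of 0.683 and 0.737.

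The BH3-only members were Bid, whose product is activated by caspase-8 cleavage and links death receptors to mitochondria, and Bcl2l11, whose product BIM binds prosurvival proteins. Bid measured 223, 95.8, 149.96, 105 and 128 normalized counts in Rragc+/+ and 156, 168, 121 and 155 in RragcS74N/+ cells. All 4 RragcS74N/+ values lay inside the range of the Rragc+/+ values. Their means were 140.4 ± 50.9 (SD, n = 5) and 149.9 ± 19.97 (SD, n = 4), and Bid differed by 0.15 (SE 0.23, 95% interval -0.35 to 0.65, limma adjusted p = 0.847), and by 0.03 without Rragc+/+ replicate 2.

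Bcl2l11 was the least abundant listed member. It measured 39.5, 40.9, 46.9, 34.6 and 15.0 normalized counts in Rragc+/+ and 41.1, 27.4, 35.4 and 21.9 in RragcS74N/+ cells, from 15 to 62 recovered reads per library. The lowest value was that of Rragc+/+ replicate 5, and the RragcS74N/+ values all fell within the Rragc+/+ range. With means of 35.4 ± 12.2 (SD, n = 5) and 31.5 ± 8.47 (SD, n = 4), its log2 difference was -0.11 (SE 0.31, 95% interval -0.77 to 0.55, limma adjusted p = 0.917), and it was -0.04 without Rragc+/+ replicate 2. Leaving out 1 library moved it between -0.38 and 0.04, so no direction can be given.

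By mean level over the 9 libraries the order was Mcl1, Bid, Bak1, Bcl2l1 and Bcl2l11. Mcl1 had the highest level in 9 of 9 libraries and Bid the next highest in 8 of 9, the exception being Rragc+/+ replicate 2, in which Bid at 95.8 normalized counts lay below Bcl2l1 at 120.4 and Bak1 at 141. Bak1, Bcl2l1 and Bcl2l11, with means of 36.7, 35.8 and 31.5 normalized counts in RragcS74N/+ cells, lay within one SD of each other. The 95% intervals above set what these 9 libraries could resolve: for Mcl1 a change beyond -0.26 or 0.46 on the log2 scale lay outside the interval, whereas for Bcl2l1 and Bak1 values down to -1.23 and -1.37 lay inside it.

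Bcl2l1 and Bak1, a prosurvival gene and an effector that it restrains, varied together from library to library. Over the 9 libraries their log2 values gave Pearson's r = 0.967 (exact permutation p = 0.000171, adjusted p = 0.00171 over 10 member pairs) and Spearman's rho = 0.917 (exact permutation p = 0.00131, adjusted p = 0.0131). Centring each genotype on its own mean gave r = 0.963. Without Rragc+/+ replicates 2 and 3, the 2 libraries farthest from the median, r was 0.715 (exact permutation p = 0.0581, adjusted p = 0.497) and rho 0.821 (exact permutation p = 0.0341, adjusted p = 0.341), so with 7 libraries the relation no longer passed the adjusted threshold. Over the 9 libraries Bak1 gave a higher r with Prkag1 (0.986), Tkt (0.986) and Ppp6r1 (0.982) than with Bcl2l1. The relation was therefore not particular to this pair. The ratio of Bcl2l1 to Bak1 normalized counts stayed between 0.780 and 1.14 (median 0.897) while Bcl2l1 spanned 3.97-fold and Bak1 5.01-fold. In Rragc+/+ replicate 2 both were at their highest, and in RragcS74N/+ replicate 4 both were at their lowest.

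Base composition of the 3′ ends was set beside this pattern. The last 500 nucleotides were 56.8% GC in both Bcl2l1 and Bak1 (percentile 96.1 of matched genes), against a median of 43.0%, and 46.2%, 40.4% and 43.6% in Mcl1, Bid and Bcl2l11. In Prkag1, Tkt and Ppp6r1, the genes most like Bak1, they were 54.6%, 42.6% and 48.0% GC. Each library's fitted trend at 56.8% GC was 0.00, 0.50, 0.22, 0.09 and -0.15 log2 units in the Rragc+/+ libraries and -0.31, -0.12, -0.02 and -0.22 in the RragcS74N/+ libraries. After removal of this trend from every gene, r between Bcl2l1 and Bak1 was 0.925 (exact permutation p = 0.00573, adjusted p = 0.0573), and the genotype differences were -0.23 for Bcl2l1 and -0.37 for Bak1. The difference of Mcl1 was 0.12 and that of Bid 0.06 after the same step. Rragc+/+ replicate 2 remained the highest library for Bcl2l1 and Bak1. What part base composition had in the relation of the pair was not tested.

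**Figure D2:**
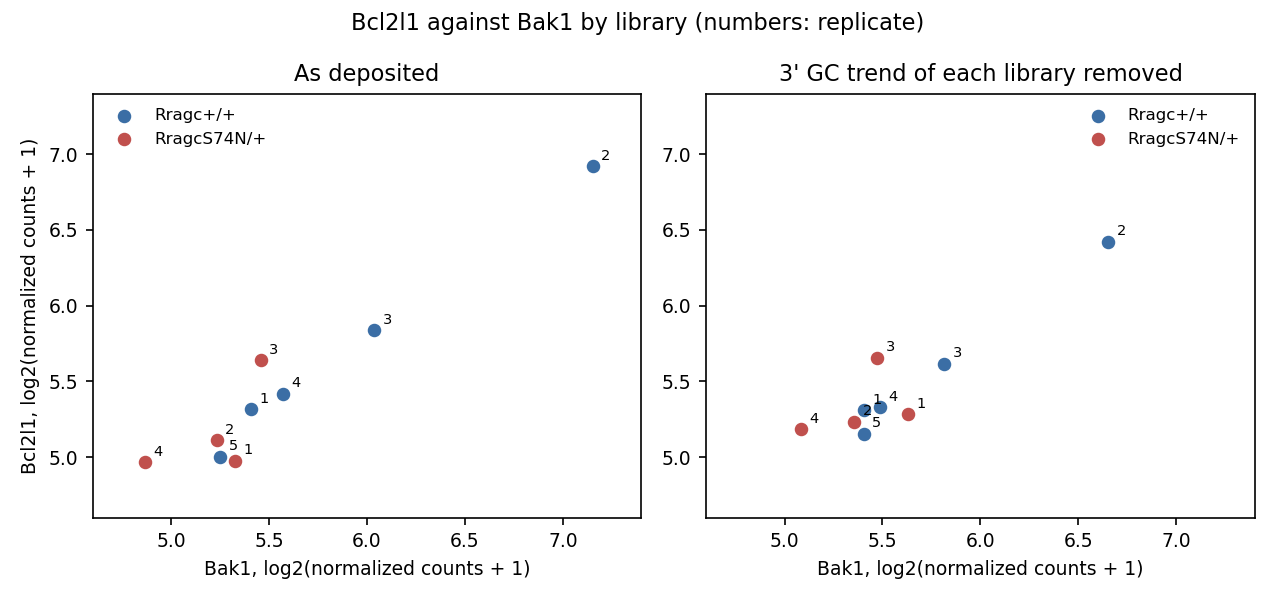
Bcl2l1 against Bak1 in each library (points, with the replicate number) as log2(normalized counts + 1), as deposited on the left and with the 3′ GC trend taken out of every library on the right. Rragc+/+ replicate 2 lies apart at the upper right in both panels, and the correlation over the 9 libraries is 0.967 on the left and 0.925 on the right.

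None of the other 9 member pairs passed the adjusted threshold. Mcl1 with Bid came nearest, with r = 0.654 (exact permutation p = 0.0553, adjusted p = 0.251) and rho = 0.767 (exact permutation p = 0.0214, adjusted p = 0.107). Bid gave r = -0.55 with Bak1 and r = -0.57 with Bcl2l1 (exact permutation test, adjusted p = 0.251 for both).

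Other cells that pass a neutrophil gate were examined beside these values. Of the 8 erythroid markers 7 were listed, and their summed level was 1091 to 5609 normalized counts in Rragc+/+ and 379 to 2158 in RragcS74N/+ libraries, with 1 marker at 0 in at least 1 library. The mean erythroid log2 score differed by -1.30 (exact permutation test, two-sided, p = 0.119), and by -1.74 to -0.83 with 1 library left out. The library with the highest erythroid sum was Rragc+/+ replicate 5, in which Bcl2l1 was at 31.1, the lowest Rragc+/+ value, and Rragc+/+ replicate 2 had a sum of 2957. The other marker lists differed by -0.34 (T and NK cell, 1 of 8 listed) to 0.54 (eosinophil and basophil, 5 of 8 listed), with monocyte (2 of 8 listed) at -0.33, secondary granule at -0.03, mature neutrophil at -0.02, B cell (2 of 8 listed) at 0.04 and cell cycle at 0.11. The mean monocyte score was highest in Rragc+/+ replicate 2, where Bcl2l1 and Bak1 were also highest, and the summed monocyte level in RragcS74N/+ replicate 4. Without Rragc+/+ replicate 2 the monocyte difference was -0.16. Its 2 listed markers went opposite ways. Csf1r had means of 177 normalized counts in Rragc+/+ and 102 in RragcS74N/+ libraries, and Ly6c2 had 2651 and 2708. Csf1r was highest in Rragc+/+ replicate 2 and Ly6c2 in RragcS74N/+ replicate 4. In all, 0 of 8 lists had an unadjusted p under 0.05 in the exact permutation test. What part other cells had in the members' values was not tested.

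Promoter sequence was read for the pair that varied together, to show what the 2 genes share at their starts. The windows run from 250 bases before to 50 after the start of the gene, taken from RefSeq on GRCm38.p6, a build other than the GRCm39 of the deposited counts, and are written 5′ to 3′ on the strand of the gene. All 5 listed members had an entry. Bak1 had 1 entry, at chr17:27028578-27028877 (minus strand). Bcl2l1 had 3, of which the farthest upstream, at chr2:152831679-152831978 (minus strand), is shown because it was the one with a match. Capitals mark the ETS motif CCGGAAG.
Bak1: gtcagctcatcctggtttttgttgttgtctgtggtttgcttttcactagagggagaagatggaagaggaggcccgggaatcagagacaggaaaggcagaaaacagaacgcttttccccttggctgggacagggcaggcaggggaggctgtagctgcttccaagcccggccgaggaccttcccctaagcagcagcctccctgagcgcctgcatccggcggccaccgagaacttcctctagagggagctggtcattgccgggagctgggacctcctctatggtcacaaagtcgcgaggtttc
Bcl2l1: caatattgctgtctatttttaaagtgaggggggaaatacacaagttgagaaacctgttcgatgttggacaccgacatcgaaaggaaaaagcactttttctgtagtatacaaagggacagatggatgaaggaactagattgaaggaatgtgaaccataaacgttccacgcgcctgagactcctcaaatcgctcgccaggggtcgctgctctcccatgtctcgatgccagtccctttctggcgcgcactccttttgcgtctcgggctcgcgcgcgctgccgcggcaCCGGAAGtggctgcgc
The motifs searched on both strands were the GC box GGGCGG, FOXO GTAAACA, the TFEB E-box CACGTG, STAT TTCNNNGAA, ETS CCGGAAG and TATAAA. Bak1 matched none of them, and Bcl2l1 matched the ETS motif 35 bases after its start, a motif held by 8.86% of 32851 promoter windows. The windows of the other members held more. Mcl1 had an ETS match 63 bases and a GC box 20 bases before its start, and Bid had GC boxes 66, 50 and 33 bases before. The first of the 2 Bcl2l11 windows held the FOXO motif 227 bases before the start, which 3.65% of windows hold, an ETS match 105 bases before and GC boxes 211, 74 and 46 bases before. The second held 3 GC boxes, and GC boxes stand in 35.7% of all windows. The E-box, STAT and TATAAA motifs, in 7.15%, 8.30% and 13.6% of windows, matched in 0 windows of the 5 members.

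The genes most like each member over the 9 libraries were taken among the 3472 genes whose mean reached 50 normalized counts, which leaves out Bcl2l1 and Bcl2l11. For Mcl1 they were Uimc1 (r = 0.936), Ankrd33b (r = 0.929) and Bst1 (r = 0.896). For Bak1 they were Prkag1 (r = 0.986), Tkt (r = 0.986) and Ppp6r1 (r = 0.982), each highest in Rragc+/+ replicate 2. For Bid they were Plbd1 (r = 0.956), Tmem43 (r = 0.943) and Socs3 (r = 0.935), each highest in Rragc+/+ replicate 1. These are descriptions over libraries that also differ in depth and in their trend on base composition.

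The wider cell death pathway was read from a list of 73 genes, of which 51 were in the table and 46 were tested. Of these, 0 passed the adjusted threshold in limma, and 7 had an unadjusted p under 0.05, all lower in RragcS74N/+ neutrophils, where 3.81% of all genes tested were lower with an unadjusted p under 0.05 and 2.01% higher. They were Pmaip1, Bbc3, Bnip3, Bad, Casp8, Cebpb and Pim1. By sign, 21 of the 46 were lower and 25 higher, with a median log2 difference of 0.02, beside 0.02 over all tested genes, of which 46.6% were lower. edgeR and DESeq2 also placed 0 of the 46 past the adjusted threshold.

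Of the 7 leading genes, 4 belonged to the BCL2 family beyond the members, in a group of 16 genes of which 7 were listed and 6 tested. The median of these 6 was -0.48, with 4 lower and 2 higher. Pmaip1 encodes NOXA, a BH3-only protein that binds MCL1. It measured 33.6, 40.9, 22.5, 14.5 and 29.1 normalized counts in Rragc+/+ and 10.6, 13.2, 20.3 and 13.6 in RragcS74N/+ libraries, from 13 to 51 reads each. The genotypes overlapped through Rragc+/+ replicate 4, and the log2 difference was -0.87 (SE 0.30, limma unadjusted p = 0.0126, adjusted p = 0.713).

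Bbc3 encodes PUMA, a BH3-only protein induced by p53. Its normalized counts were 117, 120.4, 129, 121 and 106 in Rragc+/+ and 67.0, 93.5, 103 and 80.5 in RragcS74N/+ cells. The genotypes did not overlap, although Rragc+/+ replicate 5 and RragcS74N/+ replicate 3 were close. Bbc3 differed by -0.47 (SE 0.17, limma unadjusted p = 0.0157, adjusted p = 0.713). It was -0.23 after removal of the GC trend, and the 3′ end of Bbc3 is 54.8% GC.

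Bnip3, which encodes a mitochondrial BH3-domain protein linked to mitophagy, measured 107, 161, 109, 103 and 96.3 normalized counts in Rragc+/+ and 92.8, 74.2, 74.6 and 83.6 in RragcS74N/+ cells. The genotypes did not overlap, and Rragc+/+ replicate 2 stood above the other libraries. This log2 difference was -0.48 (SE 0.19, limma unadjusted p = 0.0223, adjusted p = 0.713), and it was -0.63 after removal of the GC trend.

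Bad, named here after its values were seen, encodes a BH3-only protein that binds BCL-XL and is switched off by phosphorylation. It measured 75.1, 214, 149, 82.0 and 91.2 normalized counts in Rragc+/+ and 55.7, 76.2, 89.6 and 62.7 in RragcS74N/+ cells. The genotypes overlapped, and Rragc+/+ replicates 2 and 3 were the highest libraries, as for Bak1. Bad differed by -0.68 (SE 0.29, limma unadjusted p = 0.0347, adjusted p = 0.713). It was -0.45 without Rragc+/+ replicate 2 (limma unadjusted p = 0.0751) and -0.36 after removal of the GC trend. Its unadjusted p was also above 0.05 without Rragc+/+ replicate 3, RragcS74N/+ replicate 1 or RragcS74N/+ replicate 4.

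**Figure D3:**
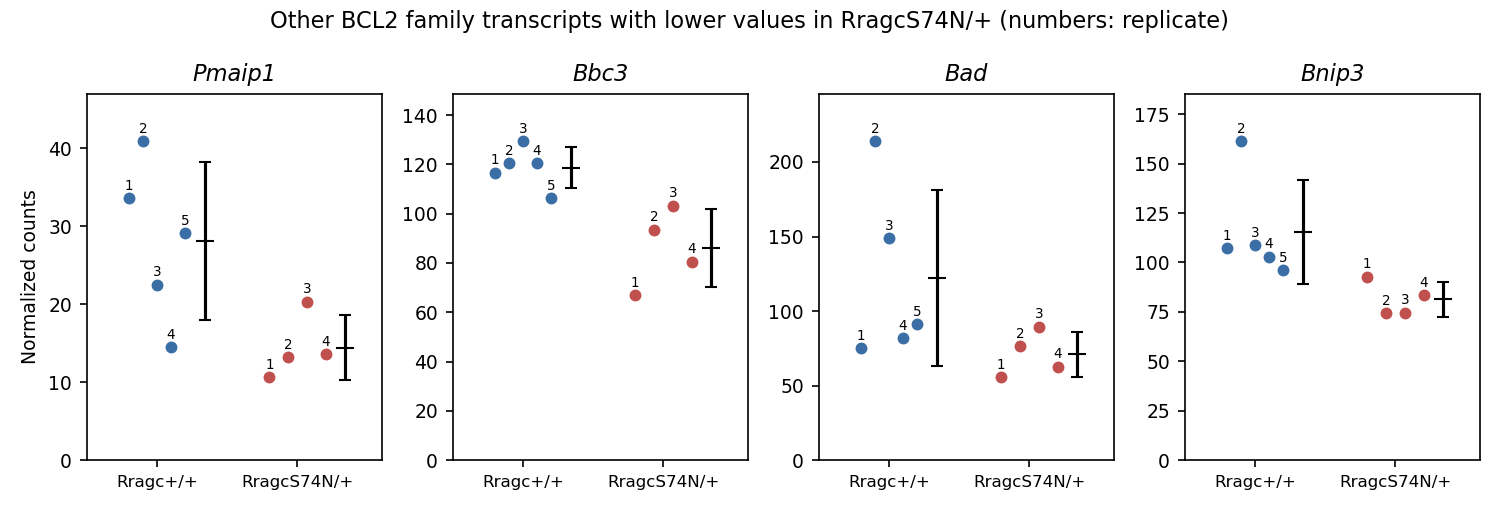
Normalized counts of Pmaip1, Bbc3, Bad and Bnip3 in each library (points, with the replicate number), by genotype, with the mean and SD as bars and a separate linear axis from 0 for each gene. Bbc3 and Bnip3 values do not overlap between genotypes, whereas Pmaip1 and Bad overlap.

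The remaining tested family genes had higher values in RragcS74N/+ cells. Bcl2l13, a mitochondrial BCL2-like gene, measured 15.8, 14.0, 14.1, 13.7 and 13.03 normalized counts in Rragc+/+ and 27.2, 16.3, 18.8 and 19.9 in RragcS74N/+ cells, without overlap. These values came from 12 to 41 reads each, and Rragc+/+ replicate 1 and RragcS74N/+ replicate 2 were close. The log2 difference was 0.49 (limma unadjusted p = 0.0553, adjusted p = 0.713). Its unadjusted p was under 0.05 in edgeR, in limma without trended moderation, and in limma without RragcS74N/+ replicate 2. Bnip3l, a mitophagy receptor that is abundant in maturing red cells, was 365 ± 84.8 (SD, n = 5) and 450.0 ± 36.5 (SD, n = 4) normalized counts, with a log2 difference of 0.33 (limma unadjusted p = 0.105, adjusted p = 0.713) that was 0.19 without Rragc+/+ replicate 2. Bmf, another BH3-only gene, was listed at a mean of 6.93 normalized counts and was below the level tested. The 4 lower genes kept that direction in each of the alternatives in which they were tested. The unadjusted p did not stay under 0.05 for any of these genes throughout. It rose above 0.05 for Bbc3 and Bad with the GC trend removed, and for Bbc3 without RragcS74N/+ replicate 1. The same held for Bnip3 without RragcS74N/+ replicate 2 or replicate 3, and for Pmaip1 with array quality weights.

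**Figure D4:**
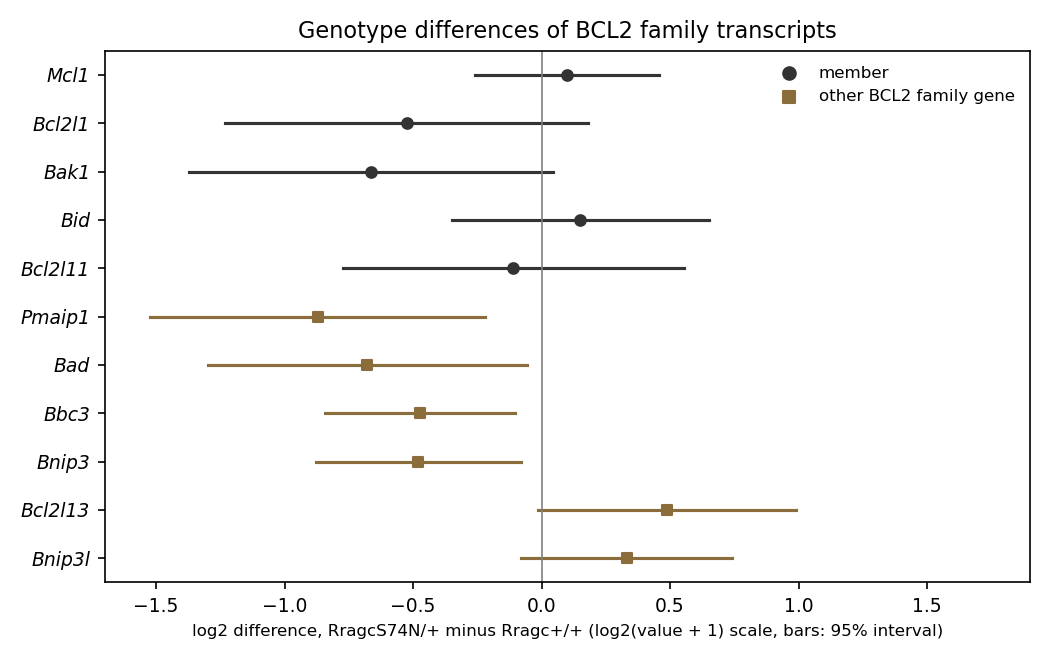
Genotype differences (RragcS74N/+ minus Rragc+/+) on the log2(value + 1) scale with 95% intervals from limma, for the 5 listed members (circles) and the 6 other tested BCL2 family genes (squares). The intervals of all 5 members include 0, those of Pmaip1, Bad, Bbc3 and Bnip3 lie below 0, and none of the 11 genes passed the adjusted threshold.

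Downstream of the family, 15 genes of the mitochondrial pathway and the caspases were tested, and 12 were higher and 3 lower, with a median of 0.21. None of the 15 had an unadjusted p under 0.05 in limma. Apaf1, the scaffold of the apoptosome, measured 136, 23.4, 64.7, 50.6 and 130.3 normalized counts in Rragc+/+ and 120.0, 102, 118 and 157 in RragcS74N/+ cells. Rragc+/+ replicate 2 was the lowest library, the reverse of its place for Bak1. The log2 difference was 0.86 (SE 0.41, limma unadjusted p = 0.0551, adjusted p = 0.713), and it was 0.49 without that library. Xiap, an inhibitor of caspases, differed by 0.28 and Birc3, an inhibitor of apoptosis of the same family, by 0.49 (limma unadjusted p = 0.156 and 0.176). Xiap differed by 0.081 after removal of the GC trend and by 0.11 without RragcS74N/+ replicate 1, and Birc3 by 0.27 without Rragc+/+ replicate 2.

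Of the death receptor pathway, 8 genes were tested, with 4 lower, 4 higher and a median of -0.03. Casp8 encodes the initiator caspase that cleaves BID. It measured 17.8, 31.5, 29.99, 24.1 and 17.0 normalized counts in Rragc+/+ and 14.6, 11.2, 18.8 and 11.5 in RragcS74N/+ cells, where 1 of the 4 values lay inside the Rragc+/+ range. Casp8 differed by -0.73 (SE 0.27, limma unadjusted p = 0.0173, adjusted p = 0.713). Fas, the receptor upstream of Casp8, differed by 0.25 (limma unadjusted p = 0.246), by 0.10 after removal of the GC trend and by 0.13 without RragcS74N/+ replicate 4.

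Of the regulators and partners of the family, 17 were tested, with 10 lower, 7 higher and a median of -0.09. Cebpb encodes a transcription factor of emergency granulopoiesis. Its normalized counts were 346, 398, 432, 335 and 302 in Rragc+/+ and 230.1, 314, 270.4 and 188 in RragcS74N/+ cells, with 1 RragcS74N/+ value inside the Rragc+/+ range. Cebpb differed by -0.55 (SE 0.18, limma unadjusted p = 0.0103, adjusted p = 0.713), and it was -0.35 after removal of the GC trend. Pim1, a kinase that phosphorylates BAD, differed by -0.38 (limma unadjusted p = 0.0499, adjusted p = 0.713). Mdm2, the ubiquitin ligase of p53, differed by 0.35 (limma unadjusted p = 0.117, adjusted p = 0.713) and by 0.23 without Rragc+/+ replicate 2. Whether cell composition or 3′ base composition has a part in any of these differences was not tested beyond the values given.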

How the data were processed

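Neutrophil RNA from 5 Rragc+/+ and 4 RragcS74N/+ mice was profiled by 3′-end sequencing (oligo-dT priming, molecular identifiers in the second strand). The authors mapped reads against GRCm39 using TopHat2, as the study's methods state (3 mismatches and 20 multi hits allowed) and counted them by strand with HTSeq (version 0.6.1). The deposited values are a signal, gene read counts that the authors divided by a size factor per library. Use of the identifiers and the filter on listed genes are not stated. Uncollapsed reads would not be independent molecules. No gene in the table was read in fewer than 7 libraries, which under-represents scarce transcripts. The study's text describes more RragcS74N/+ mice than the 4 analysed here.

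Dividing each library's values by the value of 1 read returned whole reads (100% of values within 1e-06), and these gave the depth of 1214295 to 1973957 reads per library. The depth covers listed genes alone. Replicates were separate samples in the labels, 16 pairs within a genotype differed by more than sampling noise (lowest chi-square over its degrees of freedom 5.47), and p-values measure the spread between these samples. The labels give no batch, and 0 columns were without a sample.

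The 6673 genes whose mean reached 10 were compared on the log2(value + 1) scale in limma (version 3.58.1, under R 4.3.3, trended moderation, genotype only) and Benjamini-Hochberg adjustment at 0.05. Alternatives were edgeR 4.0.16 and DESeq2 1.42.0 on recovered reads, beside other pseudocounts, filters, scalings, moderation, weights and the removal of each library. For 8 genes DESeq2 returned no adjusted p. Single values and correlations used two-sided exact permutation tests over 126 splits or all pairings, and the smallest p over the splits is 0.00794. These tests were coded directly in Python (version 3.11.15), with ranks from scipy (version 1.17.1). The GC content of the last 500 nucleotides came from GENCODE transcripts on GRCm38, matched by symbol for 7067 of 7197 genes, and removal of its cubic trend was added after the data were seen. The scripts were tested on simulated counts.

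The members, lists and tests were chosen with earlier results of these data known. All listed members were named, with, from each of 4 pathway groups, the 3 genes of smallest limma p in each direction. The 3 genes most like each member with a mean of at least 50 were also named, and 1 gene that this rule names is not reported here. Marker lists covered erythroid, monocyte, platelet, B cell, cell cycle, eosinophil and basophil, secondary granule, T and NK cell, and mature neutrophil genes, and the platelet list had 0 listed genes.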

Additional observations from a re-analysis of the deposited data

Results flagged for a closer look

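Values of 29 genes in each genotype, 58 groups in all, were searched for a single library that stood off from its group, by the gap to the nearest library as a share of the group's range. Chance gives about 1 in 20 such groups, or 2.9 of 58, and 4 were found among these genes, each in Rragc+/+ replicate 2. In that library Bcl2l1 was high at 120.4 normalized counts, with a gap of 0.718 of the range. Bak1 was high there at 141 normalized counts, with a gap of 0.736. Bnip3 was high at 161 normalized counts, with a gap of 0.808, and Stat5b, a transcription factor downstream of cytokine receptors, was high at 382 normalized counts, with a gap of 0.767.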

How the results depend on the processing

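Of the 5 members and the 46 pathway genes, 0 passed the adjusted threshold under each of 19 alternatives. The count of members with an unadjusted p under 0.05, 0 in limma, was 1 (Bak1) with array quality weights, edgeR or DESeq2, and ranged from 0 to 2 when 1 library was left out, with 1 without Rragc+/+ replicate 1 and 2 (Bak1 and Bcl2l1) without Rragc+/+ replicate 5. Over all 6673 genes tested the same count moved as well, from 388 in limma to 769 with array quality weights. It was 643 without Rragc+/+ replicate 1, 914 without Rragc+/+ replicate 5, 201 without Rragc+/+ replicate 2 and 258 with the GC trend removed. Removal of the 3′ GC trend took the pathway count from 7 to 4, and leaving out 1 library gave 5 to 12 (12 without Rragc+/+ replicate 5). Among the 6 other BCL2 family genes tested, the count was 4 in limma and 2 with the GC trend removed. Leaving out 1 library gave 2 (without RragcS74N/+ replicate 1) to 5. The 5, without Rragc+/+ replicate 5, included Bnip3l, which was higher in RragcS74N/+. The correlated pairs numbered 0 in place of 1 without the 2 libraries farthest from the median (Bcl2l1 with Bak1, r = 0.715) and 0 with the GC trend removed (r = 0.925), all by Pearson's r. By Spearman's rho with the GC trend removed, Bcl2l1 with Bak1 did not pass (rho = 0.783, exact permutation adjusted p = 0.0713), whereas Bak1 with Bcl2l11 did (rho = 0.867, exact permutation adjusted p = 0.0451). The first change came with fewer libraries and with a lower r, and the causes of these changes were not tested.

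With 1 library left out, differences ranged from 0.02 to 0.21 for Mcl1, -0.70 to -0.22 for Bcl2l1, -0.82 to -0.35 for Bak1 and 0.03 to 0.33 for Bid, with no change of sign. Signs turned for Bcl2l11 (-0.38 to 0.044, the upper end without RragcS74N/+ replicate 4, and 0.012 when Rragc+/+ replicate 3 was dropped), Rragc (-0.15 to 0.0011, the latter without RragcS74N/+ replicate 2), and Tnfrsf1a (0.052 with the GC trend removed). The scores of mature neutrophil (-0.070 to 0.033), secondary granule (-0.093 to 0.10), cell cycle (-0.011 to 0.27) and B cell markers (-0.14 to 0.25) also turned with 1 library left out. The other scores did not turn, with -1.74 to -0.83 for erythroid, -0.44 to -0.16 for monocyte, -0.49 to -0.25 for T and NK cell (exact permutation p = 0.0286 without Rragc+/+ replicate 1, from 1 listed marker) and 0.27 to 0.84 for eosinophil and basophil markers. The 4 lower BCL2 family genes had lower values in RragcS74N/+ in all alternatives that tested them. No scaling moved the median of all genes by over 0.1 on the log2 scale.

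No paired analysis was possible because replicates were numbered in accession order, with no number shared by label. Members with 15 to 121 reads per library (Bcl2l11, Bcl2l1 and Bak1) carry more counting error than Mcl1 with 908 to 2026. The 9 libraries limit precision more than depth for Mcl1.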
